A study of Mus musculus with 16 samples.

Results

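A set of 10 general pluripotency genes, Pou5f1, Nanog, Sox2, Utf1, L1td1, Sall4, Lin28a, Dppa2, Dppa4 and Trim71, were followed through 12 lists of histone mark peaks, as 10 of the 21887 protein-coding genes of the mouse gene table (mm10). The genes were taken by name, and a peak was assigned to a gene when it overlapped the gene or the 20 kb on either side. A promoter peak was one within 1 kb of either end of the gene. The lists come from a mouse embryonic stem cell line, CJ9, that had been directed to a lineage for 5 days and was fixed with formaldehyde for 8 min. The groups were arid4b-delta cells directed to endoderm, WT cells directed to endoderm, arid4b-delta cells directed to mesoderm and WT cells directed to mesoderm. Each group was profiled by ChIP-seq with 1 library for each of H3K4me3, H3K27ac and H3K27me3, and another 4 input DNA samples were not analysed here. The arid4b-delta cells are labelled as carrying a deletion of Arid4b, which encodes a subunit of the Sin3-HDAC histone deacetylase complex. Which part of the gene was removed, how many clones were used and which agents directed the cells are not given in the sources used here. With 1 library per group no difference was tested, and a mark present in one list and absent from another describes those libraries.

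Pluripotent cells are held by a circuit in which Oct4, the product of Pou5f1, and Sox2 bind DNA together and, with Nanog, drive their own genes and each other's. As cells leave pluripotency the circuit is shut down, Nanog early and Oct4 and Sox2 later and with lineage-dependent timing. H3K4me3 lies at active and poised promoters, H3K27ac at active promoters and enhancers, and H3K27me3 at genes held by Polycomb. Sin3-HDAC complexes remove acetyl groups from histones.

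Of the promoters whose marks differed between lists, those of Utf1, L1td1, Nanog and Sox2 are shown first, with that of Pou5f1, which did not differ, for comparison. RefSeq (build GRCm38.p6) gave promoter sequences for 7 of the 10 genes, each running from 250 bases before to 50 after a gene start, and none was given for Sall4, Dppa2 or Dppa4. The 5 shown are those of Utf1 (chr7:139943606-139943905, plus strand), L1td1 (chr4:98726504-98726803, plus strand), Nanog (chr6:122707239-122707538, plus strand, the first of its starts), Pou5f1 (chr17:35505782-35506081, plus strand, the first of its starts) and Sox2 (chr3:34649745-34650044, plus strand). Capitals mark matches to the motifs searched, namely GC boxes in Utf1, Pou5f1 and Sox2 and the composite OCT-SOX element in Nanog, and L1td1 held no match.

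Utf1: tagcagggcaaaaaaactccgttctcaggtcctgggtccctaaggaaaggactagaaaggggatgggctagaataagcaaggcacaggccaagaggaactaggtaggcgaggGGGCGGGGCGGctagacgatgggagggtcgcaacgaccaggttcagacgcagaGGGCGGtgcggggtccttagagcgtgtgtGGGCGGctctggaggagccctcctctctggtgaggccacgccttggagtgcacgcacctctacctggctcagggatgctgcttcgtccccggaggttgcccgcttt
L1td1: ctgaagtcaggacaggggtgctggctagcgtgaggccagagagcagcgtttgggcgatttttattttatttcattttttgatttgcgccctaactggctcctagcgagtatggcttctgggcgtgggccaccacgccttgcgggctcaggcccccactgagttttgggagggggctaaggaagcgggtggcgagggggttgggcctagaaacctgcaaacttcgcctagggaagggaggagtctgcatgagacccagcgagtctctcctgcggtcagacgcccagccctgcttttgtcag
Nanog: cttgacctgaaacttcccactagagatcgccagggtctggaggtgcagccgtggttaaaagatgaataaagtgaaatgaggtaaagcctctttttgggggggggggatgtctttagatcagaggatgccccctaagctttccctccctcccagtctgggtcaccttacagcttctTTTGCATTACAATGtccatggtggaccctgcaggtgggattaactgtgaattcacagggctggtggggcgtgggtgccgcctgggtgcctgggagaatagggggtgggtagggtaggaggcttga
Pou5f1: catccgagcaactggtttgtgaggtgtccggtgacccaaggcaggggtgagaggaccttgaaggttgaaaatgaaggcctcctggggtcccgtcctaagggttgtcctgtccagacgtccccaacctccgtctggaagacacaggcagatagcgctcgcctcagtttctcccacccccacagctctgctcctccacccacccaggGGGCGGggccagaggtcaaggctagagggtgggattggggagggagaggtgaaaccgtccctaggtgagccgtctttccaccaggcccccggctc
Sox2: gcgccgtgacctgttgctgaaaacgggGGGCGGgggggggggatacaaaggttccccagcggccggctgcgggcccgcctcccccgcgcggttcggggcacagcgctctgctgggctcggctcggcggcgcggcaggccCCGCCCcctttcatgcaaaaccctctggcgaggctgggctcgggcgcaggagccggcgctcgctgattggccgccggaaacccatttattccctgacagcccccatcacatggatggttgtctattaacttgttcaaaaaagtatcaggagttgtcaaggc

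The motifs, searched on both strands with overlaps allowed, were the octamer ATGCAAAT, the SOX motif CATTGTT, the GC box GGGCGG, the TATA box TATAAA and the composite OCT-SOX element, an octamer motif next to a SOX site. The composite was added after the Nanog promoter had been read, so its match there is no finding. It occurred in 2 of 21263 promoters of protein-coding genes, both of them overlapping Nanog starts. GC boxes were in 46.2% of those promoters and in the promoters of Pou5f1, Sox2, Utf1, Lin28a and Trim71. The SOX motif (3.25% of promoters) matched at the second start of Pou5f1, and neither the octamer (1.66%) nor the TATA box (12.6%) matched in any of these genes. The promoters differed widely in CpG content, from an observed over expected ratio of 0.192 at the first Nanog start, over 0.351 at Lin28a, 0.374 at the first Pou5f1 start, 0.559 at L1td1, 0.615 at Utf1 and 0.720 at Trim71, to 0.819 at Sox2. The median of all promoters was 0.567, and 21.2% of promoters had a lower ratio than Nanog and 74.1% a lower one than Sox2.

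The lists differ in length, which bears on every comparison below. They held 25272 arid4b-delta and 22292 WT peaks for endoderm H3K4me3, 26852 and 21752 for mesoderm H3K4me3, 35884 and 14216 for endoderm H3K27ac, 22747 and 12496 for mesoderm H3K27ac, 16660 and 10326 for endoderm H3K27me3, and 9863 and 6150 for mesoderm H3K27me3. Sequencing depth is unknown. Arid4b had promoter H3K4me3 and H3K27ac in all 4 groups, which does not check the genotype. Among 10 definitive endoderm markers promoter H3K27ac was absent in arid4b-delta endoderm and present only at Gsc in WT endoderm. Sox17, Foxa2, Gata4 and Gata6 were thus without it in the cells labelled endoderm. Fibroblast markers (8 genes, a check for feeder cells) had no promoter H3K27ac in any group. Of these, 4 had promoter H3K4me3 in arid4b-delta of either lineage, 2 in WT endoderm and 3 in WT mesoderm. Over all genes the H3K4me3 share was 53.3% to 59.7%. Of 8 housekeeping genes, 5 had promoter H3K27ac in arid4b-delta endoderm and 7 in each other group.

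In mesoderm, H3K27ac was present at the promoters of 8 of the 10 pluripotency genes in arid4b-delta and 5 in WT, beside 31.5% and 29.6% of all genes. Utf1, L1td1 and Nanog carried it in arid4b-delta only, and none of the 10 carried it in WT only. Over all genes, 5.62% had promoter H3K27ac in arid4b-delta mesoderm only and 3.71% in WT mesoderm only. Of 10 mesoderm markers none had promoter H3K27ac in arid4b-delta mesoderm, while T, Tbx6, Pdgfra, Foxc1 and Twist1 had it in WT mesoderm, with fold enrichments of 6.40 to 9.76. Mesp1, Kdr, Foxc2, Hand1 and Meox1 had none in either. The part that a difference in differentiation plays in the pluripotency result was not tested.

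At Utf1, which encodes a chromatin factor of undifferentiated cells (gene 22286, chromosome 7, 139943856 to 139945112), acetylation was present on one side of the comparison only. The list of arid4b-delta mesoderm held 7 peaks there and that of WT mesoderm none, the nearest WT peak to a gene end lying 91322 bp away. The 3 promoter peaks in arid4b-delta mesoderm ran 49 to 287 bp, 1021 to 1235 bp and 1301 to 2365 bp from the gene start. The last of these was the strongest, with a fold enrichment of 11.8. It lies just past the far end of this short gene, where the Utf1 enhancer bound by Oct4 and Sox2 is known to be. Another 4 peaks lay 5284 to 7204 bp from the start, around the near end of the long non-coding RNA gene Gm16201. Both endoderm lists held peaks at the same 2 places, with 5 peaks in arid4b-delta and 6 in WT. The strongest promoter fold was 11.8 in arid4b-delta, at the gene start, and 6.34 in WT, past the far end. Near the start WT reached 4.87, and past the far end arid4b-delta reached 8.87. Fold enrichment here is the authors' own value for a peak over its background, and is used for ranks inside one list, not for levels across lists.

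L1td1, which encodes an RNA-binding protein derived from a LINE-1 element (gene 381591, chromosome 4, 98726754 to 98738486), followed the same course. In arid4b-delta mesoderm 4 peaks stood between 184 bp before and 2222 bp after the gene start, with a strongest fold of 12.1, above 82.9% of that list. WT mesoderm had no H3K27ac peak within 100 kb of the gene. Endoderm had 4 peaks in arid4b-delta and 4 in WT over the same stretch, with strongest folds of 11.5 in both. The absence was thus in the WT mesoderm list alone among the 4.

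Nanog, the homeodomain factor of the circuit (gene 71950, chromosome 6, 122707489 to 122714633), had weaker and shorter peaks. At its start arid4b-delta mesoderm had a 207 bp peak 571 to 365 bp upstream with a fold of 8.65, and another at the far end with a fold of 6.72, and WT mesoderm had none within 1 kb of either end. WT mesoderm did have a peak 1875 bp beyond the far end, and it had the longer peak at the known upstream enhancer, 5161 to 4266 bp before the start (fold 7.75), where arid4b-delta mesoderm had one of 4687 to 4542 bp before it (fold 6.13). In covered length over the gene and 20 kb around it the order was therefore the other way, with 856 bp in arid4b-delta mesoderm and 1054 bp in WT mesoderm.

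**Figure D1:**
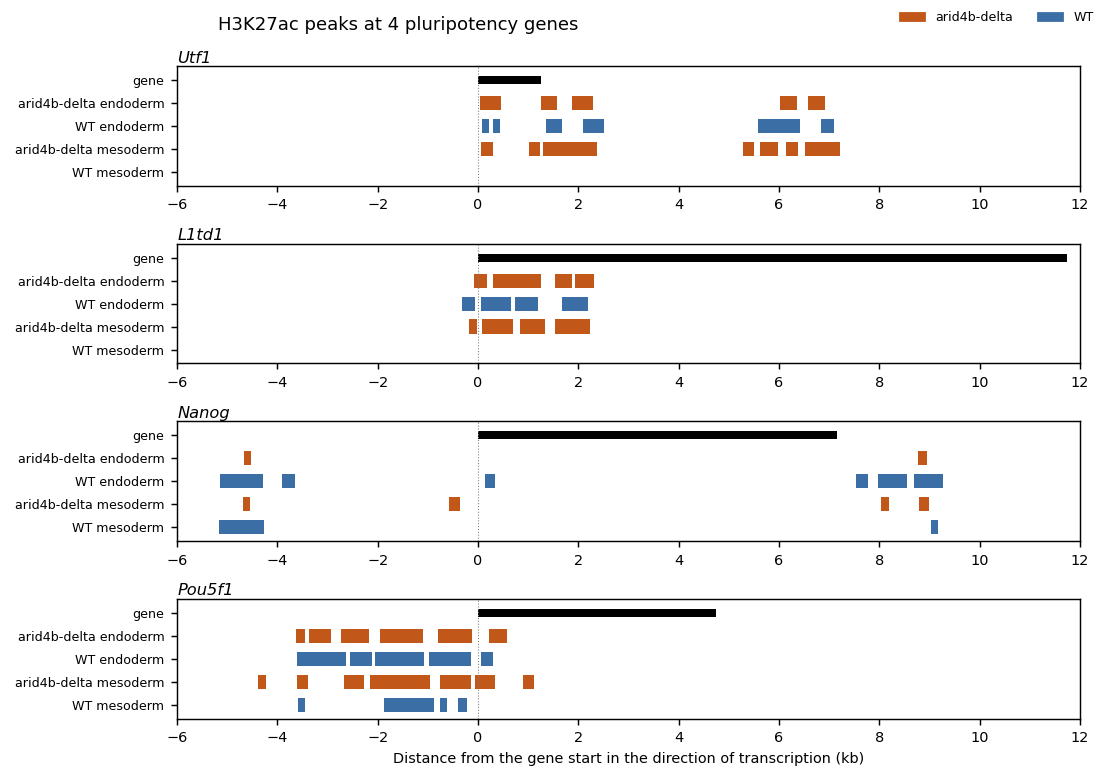
H3K27ac peaks (bars, to scale) at Utf1, L1td1, Nanog and Pou5f1 in arid4b-delta and WT cells of each lineage, by distance in kb from the gene start, with the gene in black and a distal arid4b-delta mesoderm peak of Nanog outside the range drawn. The WT mesoderm row is empty at Utf1 and L1td1, where the other 3 lists hold 4 to 7 peaks, and Nanog has the greatest number of peaks, 6, in WT endoderm.

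Pou5f1, Sox2, Sall4, Lin28a and Trim71 had promoter H3K27ac in both genotypes in mesoderm. Pou5f1 (gene 18999, chromosome 17, 35506032 to 35510777) had 7 peaks and 3218 bp of covered length in arid4b-delta, against 4 peaks and 1470 bp in WT. Its strongest peak was upstream in both, 2159 to 962 bp before the start in arid4b-delta with a fold of 29.3, above 98.7% of that list, and 1872 to 875 bp before it in WT with a fold of 10.5, above 73.8%. The known distal enhancer of Pou5f1 lies in this upstream stretch, which also overlaps the long non-coding RNA gene Gm32362. Sall4, a zinc-finger partner of Oct4 (gene 99377, chromosome 2, 168748332 to 168767201; its strand is not given, and distances count from 168767201, the end with more H3K4me3), had a promoter peak of 2710 bp in arid4b-delta and 1605 bp in WT, with folds of 14.7 and 10.8.

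Sox2 (gene 20674, chromosome 3, 34649995 to 34652461) had 2353 bp of H3K27ac around it in arid4b-delta mesoderm, against 1350 bp in WT mesoderm, with strongest promoter folds of 9.60 and 7.76. The let-7 regulator Lin28a and its let-7-controlled partner Trim71 came out differently. Lin28a (gene 83557, chromosome 4, 134003330 to 134019196) had 2794 bp in arid4b-delta and 3311 bp in WT, with folds of 13.9 and 11.1. Trim71 (gene 636931, chromosome 9, 114511268 to 114564369), an RNA-binding member of the ubiquitin ligase family, had 3121 bp and 2816 bp, with folds of 21.8 and 26.3. The covered lengths of these 2 genes differed by less than 1.5 times between the mesoderm lists, whereas Utf1 and L1td1 had all of theirs in arid4b-delta.

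Over the 8 genes with any H3K27ac nearby in mesoderm, the median covered length was 2912 bp in arid4b-delta and 1410 bp in WT, longer in arid4b-delta at 6 and in WT at 2 (Nanog and Lin28a). Over the 13105 genes with any, the medians were 602 bp and 462 bp, and 63.1% were longer in arid4b-delta. It was at least 1.5 times as long in arid4b-delta at Pou5f1, Sox2, Utf1, L1td1 and Sall4, a call made at 24% of all genes, and at none in the other direction (10.3% of all genes). The whole lists covered 8.63 Mb in arid4b-delta and 5.07 Mb in WT, with mean folds of 8.94 and 9.25.

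In endoderm the picture was different. H3K27ac stood at 7 of the 10 promoters in arid4b-delta (26.4% of all genes) and 8 in WT (26.6%), the difference being Nanog, in WT only, and none had it in arid4b-delta only. Over all genes, 4.7% had it in WT endoderm only and 4.49% in arid4b-delta endoderm only. Nanog had 2 peaks and 330 bp of covered length in arid4b-delta endoderm, neither peak within 1 kb of a gene end, the nearer one 1623 bp off. WT endoderm had 6 peaks and 2721 bp, of which 1 lay at the start (129 to 331 bp, fold 5.95), 2 within 1 kb of the far end and the others further out, at that enhancer (5154 to 4288 bp before the start, fold 9.74) among other places. Lin28a was, with Nanog, the gene at which the covered length was at least 1.5 times as great in WT, with 1233 bp in arid4b-delta and 2110 bp in WT, and with a strongest promoter fold of 5.51 in arid4b-delta and 9.44 in WT.

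The other 6 acetylated genes had covered lengths in endoderm that differed by less than 1.5 times. Pou5f1 had 3060 bp in arid4b-delta and 3438 bp in WT, Utf1 1881 bp and 2122 bp, L1td1 1922 bp and 1838 bp, Sall4 3101 bp and 3347 bp, Sox2 1153 bp and 951 bp, and Trim71 2425 bp and 1980 bp. Over the 8 genes the median was 1902 bp in arid4b-delta and 2116 bp in WT, longer in arid4b-delta at 3 and in WT at 5, whereas 59.1% of 13912 genes were longer in arid4b-delta. None was at least 1.5 times as long in arid4b-delta (27% of all genes) and Nanog and Lin28a were so in WT (12.7%). The whole lists covered 11.2 Mb in arid4b-delta and 5.28 Mb in WT, with mean folds of 7.27 and 8.496.

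**Figure D2:**
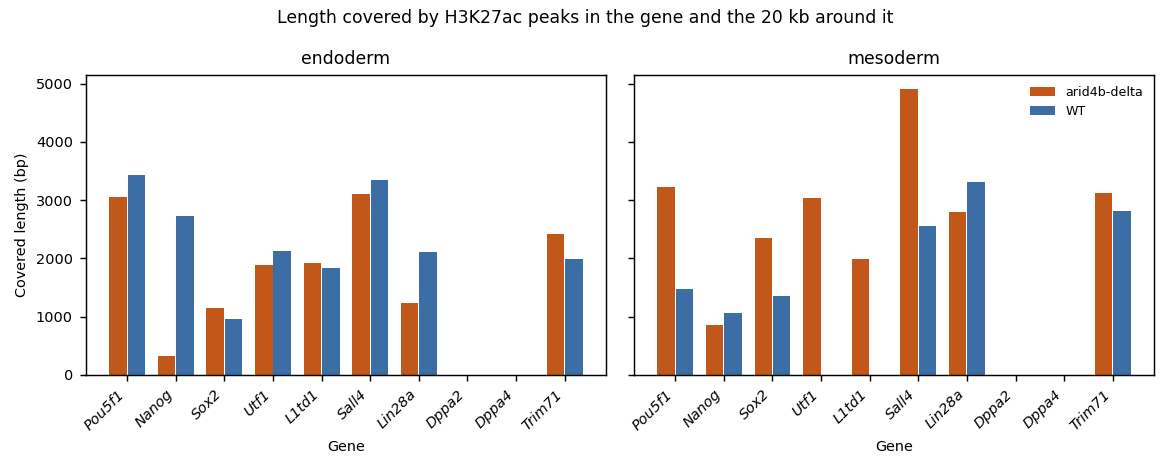
Length in bp covered by H3K27ac peaks in each gene and the 20 kb around it, in arid4b-delta (left bar) and WT (right bar), for endoderm and mesoderm (1 library per bar). Utf1 and L1td1 have 3029 and 1990 bp in arid4b-delta mesoderm and no bar in WT mesoderm, Nanog has 330 bp in arid4b-delta and 2721 bp in WT endoderm, and Dppa2 and Dppa4 have none anywhere.

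Set against each other, the lineages differed mostly in WT. Nanog, Utf1 and L1td1 had promoter H3K27ac in WT endoderm and not in WT mesoderm, a state that 3.39% of all genes shared, and none of the 10 had the opposite (6.36% of all genes). In arid4b-delta Nanog alone differed, with the mark in mesoderm only (7.43% of all genes, against 2.36% in endoderm only). The combination seen at Utf1 and L1td1, acetylated in arid4b-delta endoderm, WT endoderm and arid4b-delta mesoderm and not in WT mesoderm, was found at 283 genes, or 1.29%. These comparisons use the same lists as the genotype comparisons above.

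H3K4me3 was at the promoters of the same 8 genes in every group, with the exception of Nanog in WT mesoderm. That made 8 of 10 in arid4b-delta endoderm (58.6% of all genes), 8 in WT endoderm (53.3%), 8 in arid4b-delta mesoderm (59.7%) and 7 in WT mesoderm (55.9%). In arid4b-delta mesoderm Nanog had a single peak of 1746 bp starting 111 bp inside the gene (fold 6.50), and the nearest WT mesoderm peak to a gene end was 26763 bp away. In endoderm Nanog had the mark in both genotypes, with strongest folds of 6.98 in arid4b-delta and 5.47 in WT. None of the 10 was marked in arid4b-delta only in endoderm (5.37% of all genes) and Nanog alone was in mesoderm (3.92%), while none was in WT only in either lineage (0.101% and 0.119% of all genes). Between lineages, Nanog had the mark in endoderm only in WT (0.548% of all genes) and none of the 10 had it in WT mesoderm only (3.15%), and in arid4b-delta none had it in endoderm only (0.338%) or in mesoderm only (1.48%). Nanog, with the CpG-poorest of the promoters shown, was also the one with the lowest H3K4me3 folds in arid4b-delta. The other genes did not follow the order of CpG content. In arid4b-delta mesoderm Lin28a (ratio 0.351) had the highest fold, 30.0, and Sox2 (ratio 0.819) had 22.3. In WT endoderm Utf1 (5.08) was lower than Nanog (5.47). A relation between CpG content and fold was not tested.

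The folds at the other 7 genes are given as strongest promoter peak per list. Folds ran higher over the whole arid4b-delta H3K4me3 lists than over the WT lists. The pairs of folds below therefore do not compare levels between genotypes. The list means were 13.03 in arid4b-delta and 9.15 in WT endoderm, and 13.07 in arid4b-delta and 10.05 in WT mesoderm. Pou5f1 had 27.9 in arid4b-delta and 12.8 in WT endoderm, then 21.8 in arid4b-delta and 6.72 in WT mesoderm. Within its list the WT mesoderm peak stood above 33.2% of peaks and the arid4b-delta mesoderm peak above 81.5%. Utf1 had 19.9 and 5.08 in endoderm and 18.6 and 6.91 in mesoderm, arid4b-delta before WT. L1td1 had 12.9 in arid4b-delta and 9.64 in WT endoderm, and 19.4 in arid4b-delta and 5.42 in WT mesoderm. These 3 genes were thus in the lower part of the WT mesoderm list, at the 33.2, 34.9 and 22.6 percentiles. In the WT endoderm list Utf1 was also low, at the 16.3 percentile, while Pou5f1 stood at 80.5 and L1td1 at 59.5.

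Sall4, Trim71, Lin28a and Sox2 ranked higher in WT mesoderm. Sall4 had 23.3 in arid4b-delta and 15.0 in WT endoderm, and 25.4 in arid4b-delta and 14.4 in WT mesoderm. Trim71 had 26.6 and 18.8 in arid4b-delta and WT endoderm, and 22.8 and 18.9 in arid4b-delta and WT mesoderm. Lin28a had 20.4 and 8.41 in arid4b-delta and WT endoderm, and 30.0 and 16.6 in arid4b-delta and WT mesoderm. Sox2 had 18.8 and 11.5 in arid4b-delta and WT endoderm, and 22.3 and 11.9 in arid4b-delta and WT mesoderm. Percentiles in the WT mesoderm list were 78.5 for Sall4, 95.03 for Trim71, 88.4 for Lin28a and 65.4 for Sox2. By rank, WT stood above arid4b-delta at some genes. At Trim71 the percentiles were 93.8 in arid4b-delta and 98.2 in WT endoderm, and 84.0 and 95.03 in mesoderm. In endoderm they were 87.1 and 90.8 at Sall4 and 54.9 and 59.5 at L1td1, arid4b-delta before WT. Ranks were higher in arid4b-delta at Sall4 and L1td1 in mesoderm, and at Pou5f1, Utf1, Lin28a and Sox2 in both lineages.

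**Figure D3:**
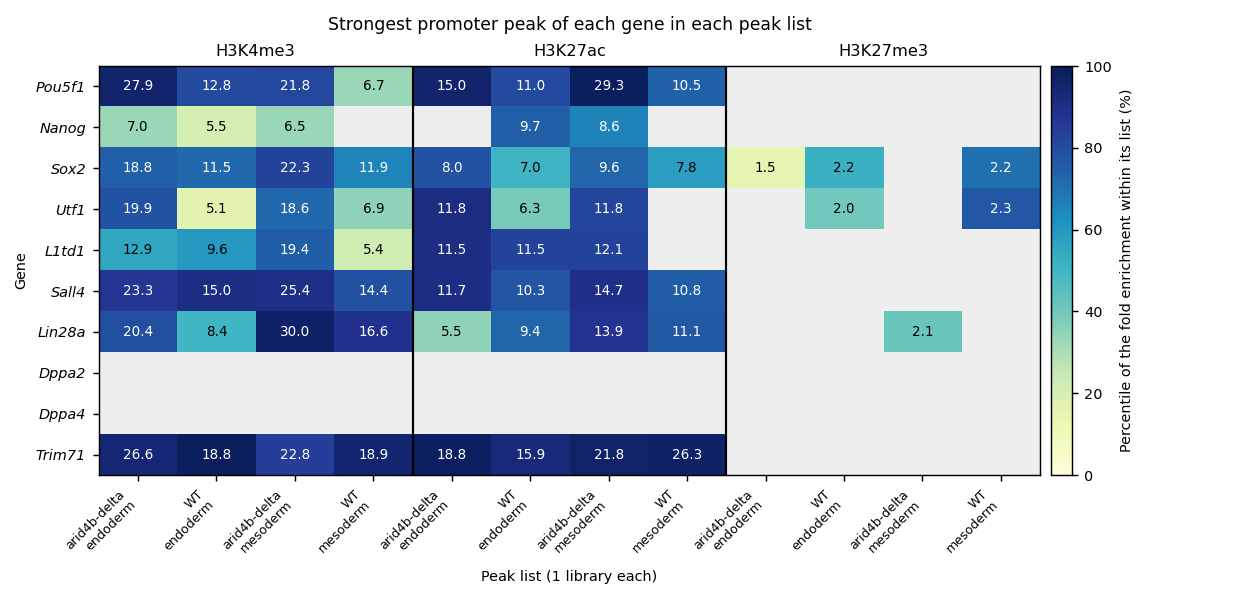
Strongest promoter peak of each gene (rows) in each of the 12 lists (columns, 1 library each): the number is the authors' fold enrichment and the colour its percentile within that list, with grey where there is no promoter peak. In the H3K4me3 and H3K27ac columns, grey cells stand at Nanog, Utf1 and L1td1 for WT mesoderm H3K27ac, at Nanog for arid4b-delta endoderm H3K27ac and WT mesoderm H3K4me3, and throughout at Dppa2 and Dppa4, while most H3K27me3 cells are grey.

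The longest promoter peak had a median of 2234 bp in arid4b-delta endoderm, 1501 bp in WT endoderm, 3400 bp in arid4b-delta mesoderm and 1954 bp in WT mesoderm, beside 1192, 740, 1334 and 973 bp over all genes with a promoter peak. A longest peak of at least 2000 bp, a limit chosen after the lengths were seen, was at 5 of the 10 genes in arid4b-delta endoderm (7.28% of all genes), 1 in WT endoderm (0.649%), 7 in arid4b-delta mesoderm (10.4%) and 3 in WT mesoderm (3.11%). Sall4 had the longest, 5052 bp in arid4b-delta mesoderm, against 3932 bp in WT mesoderm. Sox2 had 4996 bp as 1 peak in arid4b-delta mesoderm, running from 1912 bp before the start past the far end, where WT mesoderm had 6 promoter peaks of which the longest was 1691 bp. Trim71 had 4362 bp in arid4b-delta and 4059 bp in WT mesoderm, and Pou5f1 3772 bp and 2031 bp.

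The length covered by H3K4me3 in the gene and the 20 kb around it was greater in arid4b-delta at all 8 genes in both lineages, with medians of 4930 bp in arid4b-delta and 3076 bp in WT endoderm, and 5470 bp in arid4b-delta and 3449 bp in WT mesoderm. This held for 99.0% of 15934 genes in endoderm and 97.5% of 16192 in mesoderm, so it is a feature of the lists. Whole lists covered 21.0 Mb in arid4b-delta and 12.7 Mb in WT endoderm, and 23.7 Mb in arid4b-delta and 16.3 Mb in WT mesoderm. A ratio of at least 1.5 was reached in endoderm at Pou5f1, Nanog, Sox2, Utf1 and L1td1 (43.7% of all genes) and in mesoderm at Pou5f1, Nanog, Sox2 and Utf1 (26.9%). None reached it toward WT (0.206% and 0.238%).

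**Figure D4:**
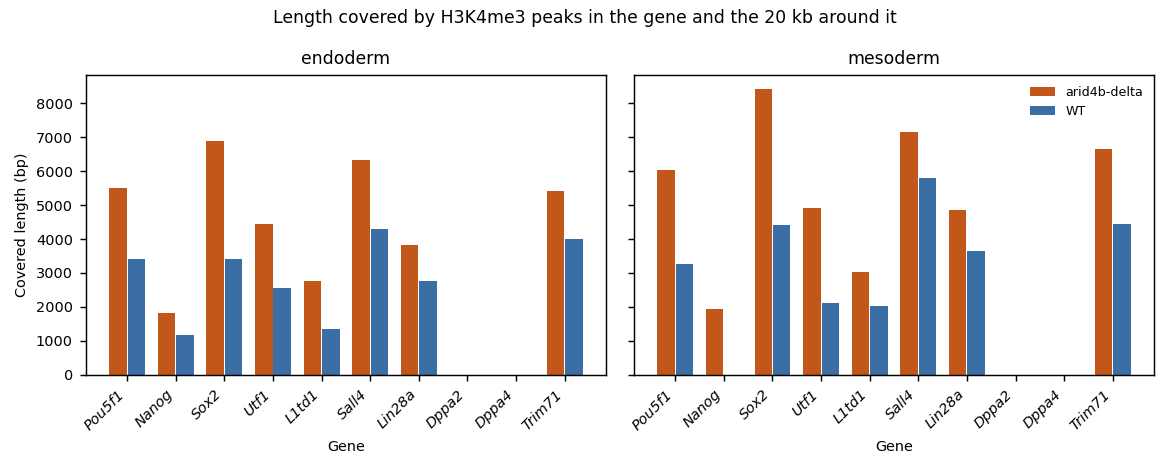
Length in bp covered by H3K4me3 peaks in each gene and the 20 kb around it, in arid4b-delta (left bar) and WT (right bar), for endoderm and mesoderm (1 library per bar). The arid4b-delta bar is the longer at all 8 genes in both panels, as at 99.0% and 97.5% of all genes with any coverage, and Nanog has no WT mesoderm bar.

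Promoter peaks of H3K27me3 were at Sox2, Utf1 and Lin28a, at 1 or 2 of the 10 genes in each group. In endoderm Sox2 had it in both genotypes and Utf1 in WT only. In mesoderm Sox2 and Utf1 had it in WT only and Lin28a in arid4b-delta only. Over all genes the mark was at 17.2% of promoters in arid4b-delta and 14.4% in WT endoderm, and at 16.3% in arid4b-delta and 9.34% in WT mesoderm. WT only was the state of 2.05% of all genes in endoderm and 0.726% in mesoderm, and arid4b-delta only of 4.89% and 7.68%. Between lineages, arid4b-delta had it at Sox2 in endoderm only (3.31% of all genes) and at Lin28a in mesoderm only (2.37%), and in WT no member of the set differed (6.08% of all genes in endoderm only, 1.01% in mesoderm only). These promoter peaks had folds of 1.52 to 2.29, from the 15.5 percentile of its list (Sox2 in arid4b-delta endoderm) to the 76.9 percentile (Utf1 in WT mesoderm), and none had a -log10 q of 2 or more.

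Utf1 had a H3K27me3 peak of 832 bp (646 to 1477 bp from the start, fold 1.97) in WT endoderm and one of 2533 bp (119 bp before to 2413 bp after the start, fold 2.29) in WT mesoderm, at least as long as 90.4% of the peaks of that list. In arid4b-delta the nearest H3K27me3 peak to Utf1 lay 47642 bp off in endoderm and 47731 bp off in mesoderm. Utf1 in WT mesoderm was thus the single case among the 10 genes and 4 groups in which H3K27me3 spanned a whole gene without H3K27ac. The gene kept H3K4me3 there, in 2 short promoter peaks of 709 and 515 bp, against 1 peak of 2803 bp in arid4b-delta mesoderm.

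Sox2 lies within the long non-coding RNA gene Sox2ot, and its flanks carried H3K27me3 in every group, upstream between 10157 and 6039 bp before the start and downstream between 10222 and 16509 bp after it. Over the gene itself the peak was 1379 bp in arid4b-delta endoderm (fold 1.52) and 267 bp in WT endoderm (fold 2.16). WT mesoderm had peaks of 194 bp and 741 bp within 1 kb of a gene end (folds 2.19 and 1.74), and arid4b-delta mesoderm had none. Total covered length around Sox2 was still greater in arid4b-delta, 9881 bp against 6906 bp in WT endoderm and 6809 bp against 4892 bp in WT mesoderm. All of these promoters also had H3K4me3, a pairing found at 14.2% of all genes in arid4b-delta and 10.1% in WT endoderm, and at 14.2% in arid4b-delta and 7.64% in WT mesoderm. The Lin28a peak in arid4b-delta mesoderm was 222 bp long, 1076 to 855 bp upstream of the gene start, with a fold of 2.14.

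**Figure D5:**
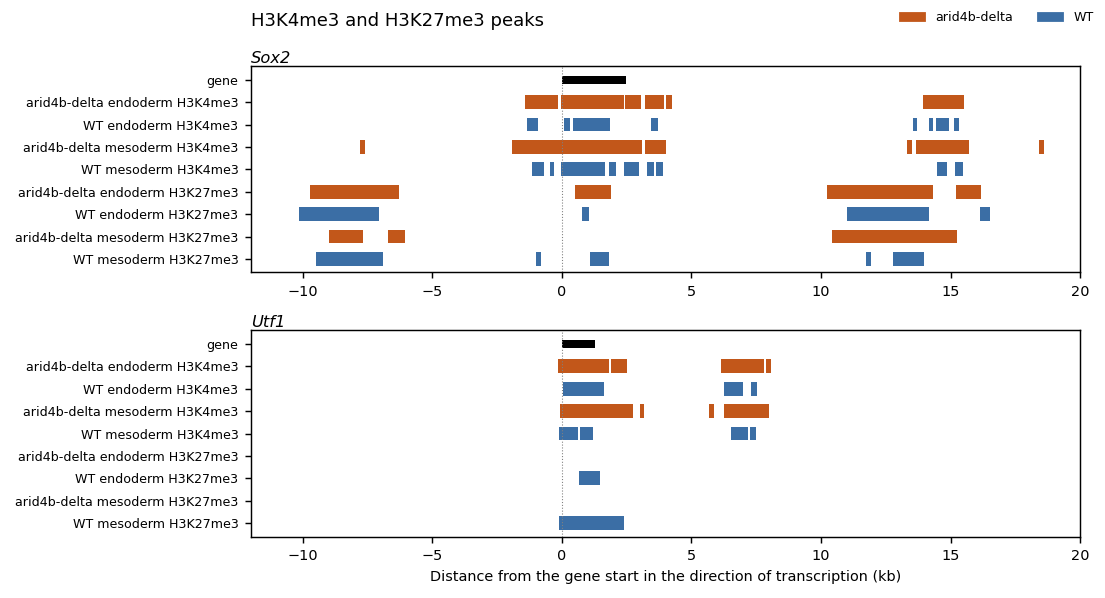
H3K4me3 and H3K27me3 peaks (bars, to scale) at Sox2 and Utf1 in arid4b-delta and WT cells of each lineage, by distance in kb from the gene start, with the gene in black. H3K27me3 flanks Sox2 in all 4 groups and lies at Utf1 in the 2 WT groups only. It overlaps part of Utf1 in WT endoderm and spans the whole gene in WT mesoderm, with the 2533 bp peak.

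Dppa2 and Dppa4, neighbouring genes for a pair of SAP-domain proteins that bind chromatin together (genes 73703 and 73693, chromosome 16, 48310274 to 48319513 and 48283735 to 48294292), had no peak of any mark in the gene or within 20 kb in any list. A promoter without any of the marks in all 12 lists was the state of 35.8% of genes. The closest H3K27ac peak was 36580 bp from a Dppa4 end in arid4b-delta mesoderm, and neither WT list had one within 100 kb. No H3K4me3 or H3K27me3 peak lay within 100 kb of either gene in any list.

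Patterns over the 12 lists, each gene scored as with or without a promoter peak, put the 10 genes into 7 classes. Pou5f1, Sall4 and Trim71 had H3K4me3 and H3K27ac in all 4 groups and no H3K27me3, as did 3901 genes (17.8%), among them Rif1, Mycn and Zscan10 of the wider pluripotency network. L1td1 shared its pattern with 174 other genes and Lin28a with 58, Sall1 among these. Utf1 shared its with 2, and the patterns of Nanog and of Sox2 were found at no other gene. The patterns of Sox2, Utf1 and Lin28a include promoter H3K27me3 peaks, none of which had a -log10 q of 2 or more. How often a pattern belongs to a single gene is not given. Likeness in such a pattern rests on peak calls and says nothing of level.

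Any H3K4me3 peak in the gene or the 20 kb around it was found for 8 of the 10 genes in arid4b-delta endoderm (72.7% of all genes), 8 in WT endoderm (67.8%), 8 in arid4b-delta mesoderm (73.9%) and 7 in WT mesoderm (69.7%). For H3K27ac these were 8 in arid4b-delta endoderm (58.7%), 8 in WT endoderm (46.1%), 8 in arid4b-delta mesoderm (55.7%) and 6 in WT mesoderm (47.6%), since Nanog kept distal peaks there and Utf1 and L1td1 had none. For H3K27me3 they were 1 in arid4b-delta endoderm (41.1%), 3 in WT endoderm (31.7%), 2 in arid4b-delta mesoderm (32.6%) and 2 in WT mesoderm (20.9%), the third WT endoderm gene being Trim71, with a 176 bp peak inside the gene. A H3K27me3 length at least 1.5 times as great in arid4b-delta was seen at none of the 10 in endoderm (27.2% of all genes) and at Lin28a in mesoderm (28.2%), and one at least 1.5 times as great in WT at Utf1 and Trim71 in endoderm (7.17%) and at Utf1 in mesoderm (3.38%).

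Peaks in the gene or the 20 kb around it that overlapped a peak of the other genotype made up 40.4% of 52 arid4b-delta and 81.5% of 27 WT mesoderm H3K27ac peaks (exact Clopper-Pearson 95% intervals 27.01 to 54.9 and 61.9 to 93.7). These intervals, and those for endoderm below, cover counting error only and treat peaks as independent. Peaks of the same gene are not, so the intervals may be too narrow. In arid4b-delta mesoderm the 7 peaks at Utf1 and the 4 at L1td1 all lacked a WT counterpart. Over the whole lists these shares were 40.6% and 73.2%. In endoderm they were 83.7% of 43 arid4b-delta peaks (69.3 to 93.2) and 76.7% of 43 WT peaks (61.4 to 88.2), against 27.02% and 70.8% over the whole lists. For arid4b-delta the share at these genes was above that of the list in endoderm and near it in mesoderm, which was not tested. The list shares are over all peaks, near a gene or not, and the shares for peaks near genes in general are not given. The 52 peaks in arid4b-delta mesoderm divided into 22 at promoters, 15 within genes and 15 in the flanks.

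Some of the distal H3K27ac peaks recurred in several lists. Trim71 had one 19905 to 19593 bp before its start in arid4b-delta mesoderm (fold 13.7), with counterparts in the other 3 lists of fold 9.86 in arid4b-delta endoderm, 10.6 in WT endoderm and 4.32 in WT mesoderm. Sall4 had one 10169 to 9509 bp before its start in arid4b-delta mesoderm (fold 9.19) and 10203 to 9902 bp before it in WT mesoderm (fold 5.27). H3K4me3 peaks 9781 to 11906 bp from the Pou5f1 start lay within 1 kb of the ends of its neighbours Tcf19 and Cchcr1. Others lay as near to the end of Atp9a beyond Sall4 and to that of Dhdds beyond Lin28a. All of them are included in the covered lengths given above.

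Among 30 further genes of the pluripotency network, H3K27ac in mesoderm was at 13 promoters in arid4b-delta and 9 in WT, beside 31.5% and 29.6% of all genes. In arid4b-delta only (5 of the 30, beside 5.62% of all genes) were Tdgf1, a Nodal co-receptor (fold 10.7), Stat3, the effector of LIF (8.19), Myc (7.30), the growth factor genes Gdf3 (6.13) and Fgf4 (5.73). Tbx3, a T-box factor of naive cells, was in WT only (5.45), a state of 3.71% of all genes. In endoderm Myc (7.89) and the DNA methyltransferase gene Dnmt3b (5.25) had the mark in arid4b-delta only, and the transcription factor gene Foxd3 (6.25) and the dioxygenase gene Tet1 (4.01) were among those with it in WT only, states of 4.49% (arid4b-delta only) and 4.7% (WT only) of all genes. Tdgf1 had the Utf1 pattern of acetylation, with 12.6 in arid4b-delta and 21.1 in WT endoderm and none in WT mesoderm. For H3K4me3 in mesoderm 3 of the 30 were in arid4b-delta only, beside 3.92% of all genes, namely Tdgf1 (6.89), Gdf3 (4.10) and Zfp42 (7.34), the last named after its values were seen and also in arid4b-delta only in endoderm (5.73).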

How the data were processed

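The 12 ChIP-seq peak lists were used as deposited by the authors. Bowtie2, Picard and MACS2 and the build mm10 are named per the submitters' processing notes, without versions. Per the peak names in the files, duplicate reads were removed. Each deposited peak has a score, a fold enrichment (a ratio), a -log10 p and a -log10 q, and the narrow lists of H3K4me3 and H3K27ac also a deposited summit position. H3K27me3 lists hold broad peaks. Read depth is unknown, and the 4 input samples were not analysed here.

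Genes were the 21887 protein-coding genes of the RefSeq table of GRCm38.p6. A promoter counted as marked when a peak overlapped the 1000 bp around either gene end by at least 1 bp. Overlaps were computed in Python 3.11.15 with pandas 2.3.3 and tested on simulated data, also against bedtools 2.31.1. All 10 genes are named whatever their values; other pluripotency genes are named where promoter H3K27ac differed between genotypes, where they share a pattern or where their end lies under a peak, except for a result that is not reported here. The genes and lists were chosen with earlier results of these data known. Alternatives changed the window, list length, threshold, overlap and gene end.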

Additional observations from a re-analysis of the deposited data

Results flagged for a closer look

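Some H3K27ac differences between genotypes had opposite signs in the 2 lineages, but in covered length the endoderm side was small. Each group had 1 library, and none of these differences was tested. At Nanog a promoter peak was in WT only in endoderm and in arid4b-delta only in mesoderm. The strongest peaks lay at unlike places, at the far end in WT endoderm (fold 9.73) and at the start in arid4b-delta mesoderm (fold 8.65). With a 2500 bp window neither of these promoter differences remained. The covered length around Nanog did not change direction, with arid4b-delta minus WT at -2391 bp in endoderm and -198 bp in mesoderm. The length covered by H3K27ac around Pou5f1, arid4b-delta minus WT, was -378 bp in endoderm and 1748 bp in mesoderm. For Utf1 this difference was -241 bp in endoderm and 3029 bp in mesoderm, and for Sall4 it was -246 bp in endoderm and 2364 bp in mesoderm. The endoderm lengths themselves were close. They were 3060 bp in arid4b-delta and 3438 bp in WT at Pou5f1, and 1881 bp and 2122 bp at Utf1. At Sall4 they were 3101 bp and 3347 bp. At the Utf1 promoter alone, endoderm coverage was greater in arid4b-delta, with 1141 bp against 787 bp in WT. The endoderm signs at these genes thus carry little weight.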

How the results depend on the processing

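No paired analysis was possible because each group has 1 library and the results come from no test. The 3 promoters with H3K27ac in arid4b-delta mesoderm only were 2 to 3 under every alternative run, and all 12 promoter counts kept their values within 1.5 times when only gene starts were used. The H3K27me3 counts were the least stable. With a 500 bp window, arid4b-delta only became 1 in endoderm and 0 in mesoderm, and WT only became 1 in mesoderm. With a stricter q, WT only became 0 in both lineages and arid4b-delta only 0 in mesoderm, as it also did (0) with at least 200 bp covered. With a 2500 bp window, endoderm H3K27ac in WT only became 0. With lists matched in length, endoderm WT only became 2 for H3K27ac and 2 for H3K27me3. With the upper 50% of each list by fold, the endoderm H3K27ac counts became 1 (arid4b-delta only) and 2 (WT only), H3K4me3 in arid4b-delta only became 2 in endoderm and 3 in mesoderm, and mesoderm H3K27me3 in arid4b-delta only became 0. Within 10 kb of these genes, 100% of WT endoderm H3K4me3 peaks overlapped arid4b-delta peaks. The share was 97.2% within 20 kb and 98.07% over the whole list. The causes were not tested.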
